A study of Mus musculus with 8 samples.

Results

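The translation efficiency (TE) of a transcript, its ribosome-bound level over its total level in the same pool of oocytes, was compared between old and young mice for abundant transcripts. Genes were taken as abundant where the input library of each of the 4 pools held at least 20 CPM (reads of a gene scaled by the authors to the size of its library) and where the gene was also in the table of ribosome-bound RNA. Of the 8537 genes in both tables, 3856 were abundant (45.2%), and a further 2 genes met the minimum but were not in the ribosome-bound table. The choice used input levels and presence in the ribosome-bound table, and neither TE nor age. Just inside the minimum was Gpi1, with a lowest input of 20.0 CPM, and just outside it was Sgsm1, at 19.9998 CPM.

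Oocytes at metaphase II (MII, the stage at which the egg is ovulated) came from C57BL/6 females of the genotype RiboTagF/F;Zp3-Cre. Old females were retired breeders of 12 to 15 months and young females were 1 month old, and both ages carried the tagged allele and the Cre transgene. Ovulation was induced with PMSG (5 IU) followed by hCG (10 IU) at 48 h, and ovulated eggs were recovered after another 13 h. Each of the 2 old and 2 young pools held 200 oocytes, and the labels do not say how many females gave them, so that the spread between pools may be partly technical. In RiboTag mice, Cre recombination adds an HA epitope to a protein of the large cytosolic ribosomal subunit. Zp3-Cre acts in growing oocytes, so that HA immunoprecipitation recovers mRNA bound to oocyte ribosomes. Before the immunoprecipitation, 10% of the lysate was set aside for the input library.

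As background, the oocyte stops transcribing before it resumes meiosis, so that proteins for maturation, fertilization and the first cleavages are made from stored maternal mRNA. Stored transcripts are held with short poly(A) tails, and their translation is switched on or off at set stages. The cytoplasmic polyadenylation element (CPE) in the 3'-UTR, bound by CPEB1, is a main signal for this switch. A TE above 1 here means that the normalized HA level of a transcript exceeded its normalized input level. HA and input were normalized separately, so TE ranks genes within a pool and is not a number of ribosomes per mRNA.

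The 8 libraries held 37817382 to 60052814 reads on genes, and 3 reads, taken as a floor, were worth 0.0388 to 0.111 CPM. Each abundant gene had at least 765 input reads in a library. Such numbers bound counting error only, since the reads carry no molecular identifiers. Of the oocyte markers, 10 of 10 were in both tables. Their summed HA level was 14183 to 20426 CPM in old and 13228 to 13471 CPM in young pools, and their summed input level was 10444 to 10712 CPM and 11746 to 11852 CPM. No marker of blood and immune cells (0 of 8) was in either table. Of 15 markers of cumulus and granulosa cells, which surround the oocyte, 3 were in the HA table, with sums of 81.7 to 83.8 CPM in old and 156 to 182 CPM in young pools, and 9 were in the input table, at 32.6 to 117 CPM and 90.5 to 197 CPM. Amh, Foxl2 and Lhcgr were in neither table, and fewer such cells and less RNA per cell cannot be told apart. Their part in the TE differences was not tested. Of 7 markers of oviduct epithelium, Cdh1 was in the HA table (672 to 705 CPM in old and 478 to 686 CPM in young pools), Cdh1 and Epcam were in the input table (together 363 to 391 CPM and 436 to 462 CPM), and oocytes themselves make Cdh1.

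TE was spread more widely over genes in old pools than in young pools. Median TE was 0.866 in old pool 1, 0.880 in old pool 2, 0.747 in young pool 1 and 0.750 in young pool 2. From the 10th to the 90th percentile of genes, TE ran from 0.165 to 2.47 and from 0.0636 to 3.31 in the old pools. In the young pools it ran from 0.350 to 1.68 and from 0.258 to 1.75. The old pools had a longer tail at both ends, with a TE under 0.1 for 254 and 495 abundant genes, against 9 and 85 in the young pools. They also had more transcripts with a TE over 5, at 58 and 151 genes against 3 and 7. The old pools differed from each other by a median of 1.14 on the log2 TE scale and the young pools by 0.58. For 64.4% of the abundant genes, the gap between the old pools exceeded the difference between the ages.

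**Figure D1:**
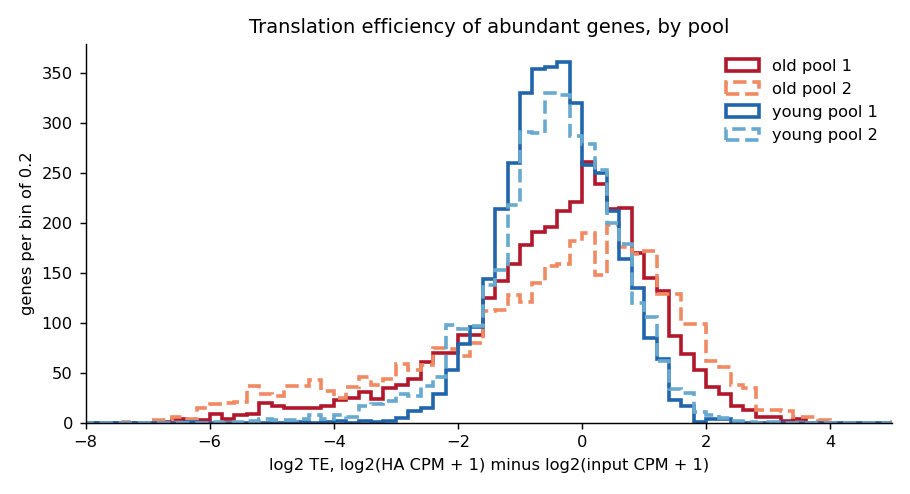
Number of abundant genes (vertical axis, per bin of 0.2 on the log2 scale) by log2 TE (horizontal axis, log2 of HA CPM + 1 minus log2 of input CPM + 1) in each of the 4 pools. Both old pools have a lower peak and longer tails on either side than both young pools, with SDs over genes of 1.58 and 2.05 against 0.86 and 1.10.

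The first question was whether single abundant transcripts changed their TE with age beyond the spread between pools. For 902 abundant genes (23.4%), both old TE values lay above both young values, and for 607 (15.7%) both lay below, while the pools overlapped for 2347. Over all genes in both tables with input reads in each pool, the background of these counts was 16.7% above and 22.8% below. In limma on log2(HA CPM + 1) minus log2(input CPM + 1), with Benjamini-Hochberg adjustment over all 8537 genes, 0 abundant genes had an adjusted p under 0.05 (background 0.0%). The smallest adjusted p was 0.739, the quasi-likelihood test of edgeR also gave 0 genes, and DESeq2 gave 84. Before adjustment, 181 genes with a p under 0.05 were higher in old oocytes (4.69%, background 2.98%) and 124 lower (3.22%, background 3.51%). So the direction of each gene named here is a description of 4 pools, and no single gene passed the test. With old pool 1 left out, 40 genes passed the adjusted threshold, and with young pool 1 left out, 2 did. An exact permutation test of 2 pools against 2 cannot give a two-sided p below 0.333.

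The split between higher and lower depended on the scaling of the libraries. As deposited, the HA values summed to 1115490 and 1397710 CPM in the old pools and to 771444 and 831404 CPM in the young pools. The median log2 TE difference of the abundant genes was 0.12 as deposited, -0.10 with each pool centred on its own median, -0.18 after quantile normalization and -0.32 when all libraries were set to an equal sum. After centring, 668 genes lay above (17.3%, background 13.3%) and 788 below (20.4%, background 24.8%). The 668 genes were all among the 902 above as deposited, and the 607 below as deposited were all among the 788. With libraries at an equal sum, 463 genes lay above and 1024 below, and after quantile normalization 497 and 883.

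Among the genes set apart here by TE, ribosome-bound RNA differed more than total RNA. They were chosen by the ratio of these levels in the same pools, so that part of this follows from the choice. The minimum of 20 CPM also held for input and not for HA. Over all abundant genes, the median log2 difference was 0.19 in HA and 0.08 in input. Among the 902 genes with higher TE in both old pools, the median log2 difference between old and young was 1.03 in HA and -0.02 in input. For 708 of them, HA levels in old pools also lay above those in young pools, and for 163 the input levels lay below. Among the 607 genes with lower TE, the medians were -1.44 in HA and 0.28 in input. Of these, 425 also had lower HA levels in both old pools and 205 had higher input levels. The lower genes had the larger differences, with 252 of 607 beyond 2 on the log2 scale, against 99 of 902 higher genes. In 270 of the 607 genes, at least 1 old pool had a TE under 0.1. Low HA values went with this direction, since 152 lower and 6 higher genes had a mean HA level under 20 CPM.

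Among the genes higher in both old pools on both scales, the 12 with the smallest limma p served quite different functions. Zbed3 (ENSMUSG00000041995.7, chromosome 13 of GRCm38, 95323612 to 95337841, + strand), which encodes a zinc finger protein of the subcortical maternal complex, had a TE of 2.10 and 2.39 in old pools against 1.21 and 0.920 in young pools. Its log2 TE difference was 1.09 (standard error 0.18), the smallest standard error of the 12, and its adjusted p of 0.739 in limma was that of all 24 genes in this and the next paragraph. HA levels of Zbed3 were 75186 and 93369.7 CPM in old and 25172 and 27633 CPM in young pools, and input levels were 35739.9 and 39139.9 CPM and 20779 and 30033 CPM. Zbed3 thus lay higher in old oocytes in both fractions, and more so in HA. Ticrr, a factor for the start of DNA replication, had a TE of 2.18 and 3.11 in old pools against 0.825 and 0.757 in young pools (log2 difference 1.72, standard error 0.32). Spin1, spindlin 1, a reader of histone methylation that is plentiful in oocytes, had a TE of 2.00 and 1.66 in old pools against 0.615 and 0.672 in young pools (1.50, standard error 0.29). For Spin1 the input levels of the ages overlapped, at 2523 and 2985 CPM and 2731 and 2399 CPM. Several others act on RNA. Thoc2, the scaffold of the THO complex in mRNA export, had a TE of 4.39 and 7.55 in old pools against 0.917 and 0.667 in young pools. Gpatch8, a G-patch protein, had 2.51 and 3.92 in old pools against 1.00 and 0.543 in young pools. Mphosph6, a protein of the nuclear RNA exosome, had 2.18 and 4.58 in old pools against 0.601 and 0.749 in young pools, where the HA level of the old pools (748 and 1295 CPM) lay well above that of the young pools (134 and 204 CPM). Signalling and the cytoskeleton were represented as well. Spry4, an inhibitor of receptor tyrosine kinase signalling, had a TE of 1.29 and 1.15 in old pools against 0.523 and 0.365 in young pools, with input levels of 1215 to 1419.8 CPM over the 4 pools. Arhgap28, a GTPase-activating protein, had 4.76 and 9.47 in old pools against 1.24 and 1.46 in young pools, and Dpysl3, a protein of the cytoskeleton known from neurons, had 3.69 and 2.15 in old pools against 0.403 and 0.302 in young pools. The remaining genes were the transcription factor Pou2f2 (3.70 and 6.41 in old pools against 0.747 and 0.259 in young pools), Midn, whose product brings nuclear proteins to the proteasome (2.72 and 2.39 in old pools against 0.865 and 0.354 in young pools), and Fam193a (2.10 and 1.32 in old pools against 0.578 and 0.566 in young pools). In each of the 12 genes, HA levels of the old pools also lay above those of the young pools. The spans of 8 of the 12 overlap another annotated gene, and counting without strand cannot tell such reads apart.

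**Figure D2:**
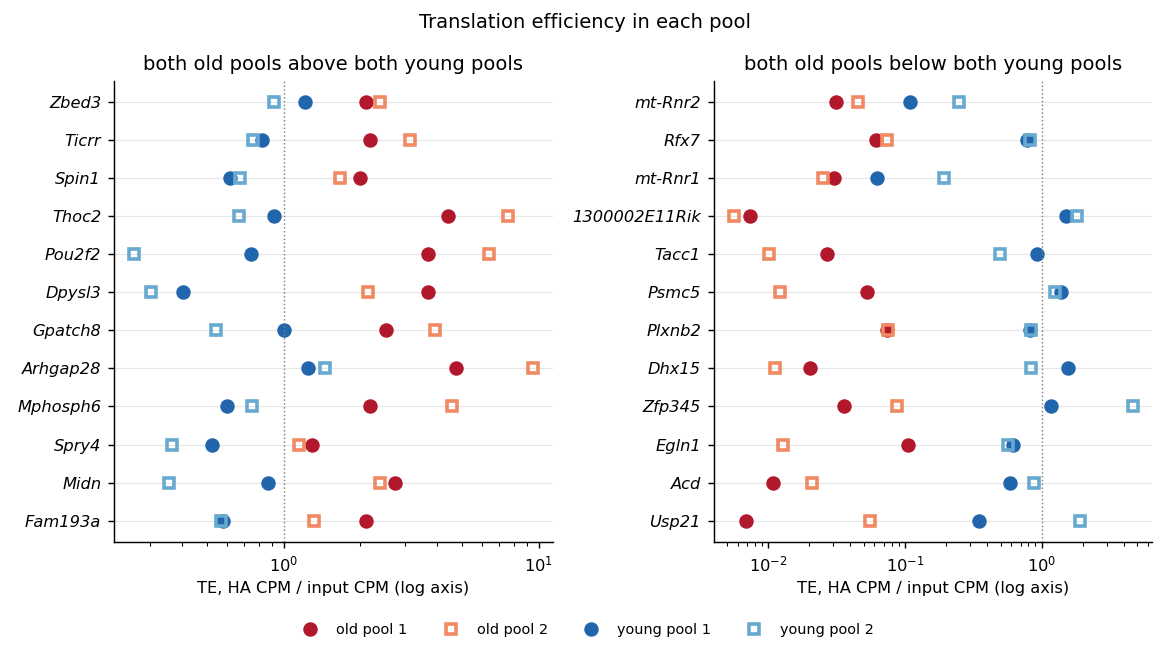
TE (HA CPM over input CPM, log axis) in each pool for the 12 higher and the 12 lower genes with the smallest limma p, where each point is 1 pool and the dotted line marks a TE of 1. Old pools lie at 1.15 or more in the left panel, and in the right panel at 0.105 or less, with young pools of mt-Rnr1 and mt-Rnr2 down to 0.0631.

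The 12 genes lower in both old pools included both mitochondrial ribosomal RNAs. Of the 12, mt-Rnr2 had the smallest limma p, and the 2 rRNAs had the smallest differences in size. Mitochondrial ribosomes lack the tagged protein, so these RNAs are not targets of the immunoprecipitation. mt-Rnr2 (ENSMUSG00000064339.1, chromosome M of GRCm38, 1094 to 2675), the large-subunit rRNA, had a TE of 0.0312 and 0.0456 in old pools against 0.109 and 0.250 in young pools (log2 difference -2.13, standard error 0.38). mt-Rnr1, the small-subunit rRNA, had 0.0303 and 0.0251 in old pools against 0.0631 and 0.193 in young pools (-2.00, standard error 0.45). Input levels of mt-Rnr2 were 39236 and 58731 CPM in old and 20713 and 37485 CPM in young pools, with old pool 2 highest. The other genes had TE values of at least 0.350 in young pools and of at most 0.105 in old pools. Rfx7, a transcription factor, had a TE of 0.0611 and 0.0745 in old pools against 0.782 and 0.815 in young pools (-3.48, standard error 0.78). Plxnb2, a semaphorin receptor, had 0.0743 and 0.0754 in old pools against 0.827 and 0.842 in young pools, and here the pools of each age lay close together. Psmc5, an ATPase subunit of the proteasome's regulatory particle, had 0.0525 and 0.0122 in old pools against 1.38 and 1.25 in young pools, on 271 and 12 HA reads in old pools against 3900 and 3645 in young pools. Dhx15, a helicase that takes spliceosomes apart, had 0.0204 and 0.0112 in old pools against 1.55 and 0.831 in young pools, on 58 and 15 against 5122 and 1658 HA reads. Fewer HA reads of Dhx15 stood beside higher input levels, at 67.7 and 49.4 CPM in old and 42.7 and 35.2 CPM in young pools. Tacc1, a coiled-coil protein of centrosomes and spindles, had a TE of 0.0271 and 0.0101 in old pools against 0.919 and 0.499 in young pools. Egln1, the prolyl hydroxylase that marks HIF for degradation, had 0.105 and 0.0129 in old pools against 0.615 and 0.571 in young pools. Acd, the shelterin protein TPP1 at telomeres, had 0.0109 and 0.0210 in old pools against 0.590 and 0.881 in young pools, Usp21, a deubiquitinase, had 0.00692 and 0.0552 in old pools against 0.350 and 1.91 in young pools, and Zfp345, a zinc finger gene, had 0.0361 and 0.0879 in old pools against 1.17 and 4.61 in young pools. The long noncoding RNA 1300002E11Rik was in the group too, with a TE of 0.00740 and 0.00560 in old pools against 1.51 and 1.81 in young pools, on 7 and 32 HA reads in old pools, although its input level in old pool 2 (211 CPM) was far above that in the other pools (22.5 to 38.4 CPM). For 10 of the 12 genes, HA levels in old pools also lay below those in young pools.

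Functions were described over 42 gene lists, of which 41 held at least 3 abundant genes. The median log2 TE difference of a list was read against 0.12 for all abundant genes. It stayed above 0 under each of 6 scalings and pseudocounts for 5 lists, below 0 for 9, and changed sign for the other 27. Centring and equal sums move all lists by nearly the same amount, with all abundant genes at -0.10 and -0.32. A sign kept or changed under these 2 scalings thus follows from the deposited median. The place of a list relative to all abundant genes hardly moves. With each pool left out in turn, 17 of the 41 medians changed sign at least once. More genes lay above than below in 27 lists, and more below than above in 7, where all abundant genes had 23.4% above and 15.7% below as deposited, but 17.3% and 20.4% after centring. More genes above than below is therefore the common pattern of the deposited scale. These are counts and medians without a test, and the lists share members with one another in part.

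**Figure D3:**
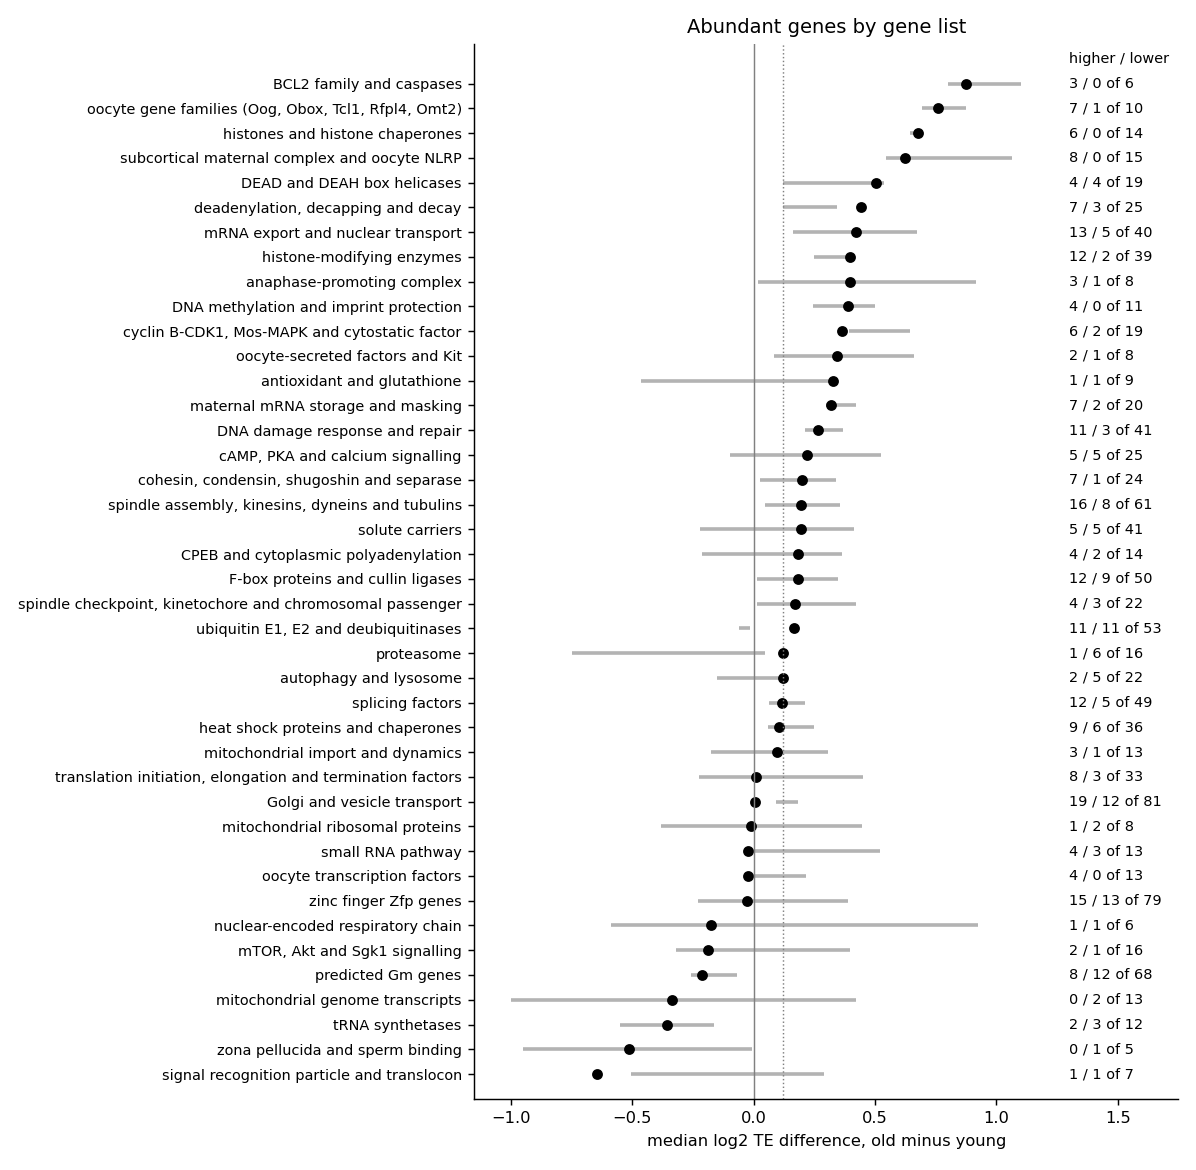
Median log2 TE difference, old minus young (horizontal axis, black points), of the abundant genes of each of 41 lists, with the range of that median when 1 pool is left out (grey lines) and the number of genes with both old pools above or both below the young pools at the right. The BCL2, oocyte family, histone and subcortical maternal complex lists lie at the top with grey lines wholly above the dotted line, the median of 0.12 of all abundant genes.

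Among lists of genes particular to the oocyte, the subcortical maternal complex and the oocyte gene families had medians among the 4 highest. In the list of the subcortical maternal complex (a protein assembly under the egg's membrane that early embryos need) and oocyte NLRP genes, 8 of 15 abundant genes lay above and 0 below, with a median log2 TE difference of 0.62 (0.17 with libraries at an equal sum). Beside Zbed3, Nlrp5 (also called MATER, a core protein of the complex) had a TE of 2.07 and 2.65 in old pools against 1.12 and 1.01 in young pools. In the oocyte gene families Oog, Obox, Tcl1, Rfpl4 and Omt2, 7 of 10 lay above and 1 below (median 0.76, and 0.31 after that rescaling). Tcl1b1 and Tcl1b3, paralogs in a cluster between which reads could have been split, had TE values of 3.41 and 1.99 in old pools against 0.683 and 0.806 in young pools, and of 1.31 and 2.96 in old pools against 0.278 and 0.414 in young pools. Tcl1b3 also had more input in old pools, at 149 and 74.9 CPM against 21.3 and 25.3 CPM. The single member below, Oog2, differed little, with 0.630 and 0.513 in old pools against 0.657 and 0.724 in young pools (log2 difference -0.28, standard error 0.67). Of the secreted factors and Kit, 2 of 8 lay above and 1 below (median 0.34, and -0.10 after rescaling). Gdf9, the growth factor by which the oocyte directs granulosa cells, had a TE of 1.90 and 2.89 in old pools against 1.39 and 1.54 in young pools, and Oosp1 had 2.03 and 1.58 in old pools against 0.752 and 0.877 in young pools. Oosp2 went the other way, with 0.312 and 0.0283 in old pools against 0.779 and 1.07 in young pools. The zona pellucida and sperm-binding genes had a median of -0.51 (-0.95 to -0.005 with 1 pool left out), with 0 of 5 above and 1 below. The gene below was Zp3, a glycoprotein of the egg coat that binds sperm, with 0.368 and 0.191 in old pools against 0.467 and 0.823 in young pools.

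In the lists of meiotic progression, each median was above 0 as deposited and below 0 with libraries at an equal sum. That scaling lowers all genes, and each of these medians still lay above the -0.32 of all abundant genes there. In the list of cyclin B, CDK1, the Mos-MAPK cascade and cytostatic factor, which hold the egg at metaphase II, 6 of 19 lay above and 2 below (median 0.36, but -0.09 with libraries at an equal sum). Ccnb1, the cyclin B1 subunit of the kinase that drives M phase, had a TE of 2.94 and 3.46 in old pools against 1.50 and 2.12 in young pools (log2 difference 0.84, standard error 0.47), with input levels that overlapped (309.5 and 345 CPM and 312 and 257 CPM). Ccnb2 overlapped between the ages, with a TE of 0.502 and 1.44 in old pools against 0.641 and 2.29 in young pools, and Ccnb3 lay slightly below, at 0.699 and 0.837 in old pools against 0.998 and 1.02 in young pools. Rps6ka3, the protein kinase RSK2, lay far below, with 0.158 and 0.0712 in old pools against 1.08 and 2.66 in young pools. Among anaphase-promoting complex genes, 3 of 8 lay above and 1 below (median 0.40, -0.05 after rescaling, 0.02 without old pool 2 and 0.92 without old pool 1). Fbxo5, known as EMI1, an inhibitor of the complex, had 1.72 and 0.901 in old pools against 0.475 and 0.462 in young pools, and its E2 enzyme Ube2c had 1.04 and 1.55 in old pools against 0.577 and 0.566 in young pools. In the kinetochore, checkpoint and chromosomal passenger list, 4 of 22 lay above and 3 below (median 0.17, and -0.27 after rescaling). Birc5, survivin of the passenger complex, had 1.85 and 1.19 in old pools against 0.643 and 0.550 in young pools, and the kinetochore motor Cenpe had 2.19 and 5.67 in old pools against 1.76 and 1.78 in young pools, where old pool 2 stood apart. Nuf2, which ties kinetochores to microtubules, was on the other side with 0.895 and 1.21 in old pools against 1.73 and 2.18 in young pools. Of cohesin, condensin and related genes, 7 of 24 lay above and 1 below (median 0.20, and -0.24 after rescaling), led by Ncapg2 of condensin II (4.14 and 2.40 in old pools against 1.02 and 0.973 in young pools) and Smc6 (1.46 and 1.68 in old pools against 0.993 and 0.504 in young pools). Of spindle genes, 16 of 61 lay above and 8 below (median 0.20, and -0.25 after rescaling). Mapre2, a microtubule plus-end protein, had 2.16 and 2.17 in old pools against 0.836 and 0.347 in young pools, and Tpx2, which activates Aurora A on the spindle, had 3.83 and 3.05 in old pools against 1.21 and 1.48 in young pools. Dynlt3, a dynein light chain, had 0.0568 and 0.0197 in old pools against 1.03 and 0.511 in young pools.

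In the lists of genes that act on mRNA, members lay on both sides. Of the mRNA export and nuclear transport genes, 13 of 40 lay above and 5 below (median 0.42, and -0.03 with libraries at an equal sum). Beside Thoc2, the nucleoporin Aaas had a TE of 4.66 and 4.77 in old pools against 0.884 and 0.629 in young pools, but another THO subunit, Thoc1, had 0.187 and 0.670 in old pools against 1.67 and 1.69 in young pools and the exportin Xpo7 0.428 and 0.185 in old pools against 0.719 and 1.04 in young pools. Of deadenylation, decapping and decay genes, 7 of 25 lay above and 3 below (median 0.44, and -0.01 after rescaling). The helicase Upf1 of nonsense-mediated decay had 3.21 and 9.03 in old pools against 1.53 and 0.770 in young pools, its partner Upf2 had 1.19 and 1.51 in old pools against 0.212 and 0.761 in young pools, and Tob2, which recruits the CCR4-NOT deadenylase, had 0.158 and 0.460 in old pools against 0.719 and 0.706 in young pools. Of proteins that store and mask maternal mRNA, 7 of 20 lay above and 2 below (median 0.32, and -0.13 after rescaling). Igf2bp3 had 0.712 and 1.69 in old pools against 0.571 and 0.462 in young pools, and Stau1, a binder of double-stranded RNA, had 0.369 and 0.155 in old pools against 0.559 and 0.614 in young pools. In the list of CPEB and cytoplasmic polyadenylation genes, 4 of 14 lay above and 2 below (median 0.18, and -0.26 after rescaling, also -0.21 without young pool 1). Here paralogs went opposite ways, since Cpeb4 had a TE of 1.16 and 0.800 in old pools against 0.171 and 0.594 in young pools and Cpeb1 of 0.723 and 0.635 in old pools against 1.64 and 1.25 in young pools. The input levels of Cpeb1 overlapped between the ages (317 and 239 CPM and 258 and 201 CPM). Cpsf3, the endonuclease that cuts pre-mRNA before polyadenylation, had 0.0123 and 0.0240 in old pools against 0.664 and 0.731 in young pools, on 18 and 23 HA reads in old pools. Small RNA pathway genes were mixed, with 4 of 13 above and 3 below (median -0.02, and -0.04 to 0.52 with 1 pool left out), among them the paralogs Tnrc6c (0.842 and 0.631 in old pools against 0.290 and 0.0977 in young pools) and Tnrc6a (0.0622 and 0.0575 in old pools against 0.958 and 0.171 in young pools). Of splicing factors, 12 of 49 lay above and 5 below (median 0.12, and -0.32 after rescaling). The branch-point protein Sf1 had 3.20 and 0.913 in old pools against 0.268 and 0.282 in young pools, and the SR protein Srsf3 had 0.687 and 0.211 in old pools against 2.30 and 3.55 in young pools. DEAD and DEAH box helicases had 4 above and 4 below of 19, though their median was 0.50 and stayed above 0 after rescaling (0.06). With 1 pool left out it ran from 0.12 to 0.54.

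Lists of the translation machinery did not share a direction. Of initiation, elongation and termination factors, 8 of 33 lay above and 3 below, with a median log2 TE difference of 0.01 (-0.44 with libraries at an equal sum, and -0.23 to 0.45 with 1 pool left out). Eif3i, a subunit of initiation factor eIF3, had a TE of 2.90 and 6.60 in old pools against 1.93 and 1.41 in young pools, while another subunit, Eif3c, had 0.388 and 0.431 in old pools against 0.563 and 1.18 in young pools. Of tRNA synthetases, 2 of 12 lay above and 3 below, and the median of -0.36 stayed below 0 with any 1 pool left out (-0.55 to -0.16). It was also below 0 under all 6 scalings. The other library scalings lower the median of all abundant genes too (to -0.10, -0.18 and -0.32), so that this does not show stability. Kars, for lysine, had 0.0521 and 0.223 in old pools against 0.234 and 0.628 in young pools, and Farsb, a subunit for phenylalanine, had 1.78 and 3.06 in old pools against 1.32 and 0.474 in young pools. Only 1 of 33 cytosolic ribosomal protein genes in both tables was abundant, so that this group is not described. Signal recognition particle and translocon genes, which bring nascent proteins to the endoplasmic reticulum, had a median of -0.64 over 7 genes, but -0.51 to 0.29 when 1 pool was left out. Srp72 of the particle had 1.81 and 3.94 in old pools against 0.339 and 0.546 in young pools, and Sec61a1, the pore of the translocon, had 0.294 and 0.0186 in old pools against 0.795 and 0.730 in young pools.

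Mitochondrial groups were small after the minimum of 20 CPM. The mitochondrial genome's own transcripts, 13 of them abundant, had a median of -0.34, with 0 above and 2 below, but 0.42 without old pool 1. Those below were the rRNAs described above, and mt-Cytb, for cytochrome b, overlapped with 0.103 and 0.480 in old pools against 0.271 and 0.404 in young pools. Of mitochondrial ribosomal protein genes, 8 of 43 in both tables were abundant, 1 above and 2 below, with a median of -0.01 that was 0.05 after quantile normalization and -0.38 to 0.45 with 1 pool left out. Mrpl47 had a TE of 0.244 and 0.0117 in old pools against 0.370 and 0.597 in young pools, on 287 and 8 HA reads in old pools. The 6 respiratory chain genes had a median of -0.17, but 0.92 without old pool 2. Of these, Atp5a1 of ATP synthase lay above (2.33 and 4.86 in old pools against 0.836 and 0.728 in young pools) and Uqcrc2 of complex III lay below (0.298 and 0.330 in old pools against 1.38 and 0.418 in young pools). Import and dynamics genes had 3 above and 1 below of 13 (median 0.10, -0.35 after rescaling, and -0.17 to 0.31 with 1 pool left out). They included Dnm1l, the dynamin that divides mitochondria, with 1.49 and 2.89 in old pools against 0.581 and 0.735 in young pools, and the chaperonin Hspd1, with 1.63 and 2.04 in old pools against 0.606 and 0.859 in young pools. Clpx, of the mitochondrial ClpXP protease, had 0.130 and 0.287 in old pools against 1.36 and 0.613 in young pools.

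Of the lists of protein turnover and transport, those of the proteasome and of autophagy had more genes below than above. Of proteasome genes, 1 of 16 lay above and 6 below, although the median of 0.12 was that of all abundant genes, and it was -0.75 without old pool 1. Psmc2, a further ATPase of the regulatory particle, had a TE of 0.0118 and 0.00174 in old pools against 0.337 and 0.224 in young pools, on 23 and 5 HA reads in old pools against 1249 and 445 in young pools. Psma2, of the core particle, was the gene above, with 2.91 and 4.18 in old pools against 1.86 and 2.00 in young pools. Ubiquitin E1, E2 and deubiquitinase genes had 11 above and 11 below of 53 (median 0.16, -0.29 with libraries at an equal sum, and -0.06 to -0.01 with 1 pool left out). At their ends were Ube2g2, with 3.11 and 2.61 in old pools against 1.14 and 0.318 in young pools, and Ube2q1, with 0.00525 and 0.00324 in old pools against 0.780 and 0.173 in young pools. F-box and cullin ligase genes had 12 above and 9 below of 50 (median 0.18, and -0.26 after rescaling). Of chaperone genes, 9 of 36 lay above and 6 below (median 0.11, and -0.34 after rescaling), with the cytosolic chaperone Hsp90ab1 at 3.42 and 5.09 in old pools against 2.32 and 1.21 in young pools. Autophagy and lysosome genes had 2 above and 5 below of 22 (median 0.12, -0.33 after rescaling, and -0.15 to 0.11 with 1 pool left out). Pik3c3, the lipid kinase that starts autophagosomes, had 0.196 and 0.0162 in old pools against 0.544 and 0.937 in young pools, where old pool 2 rested on 18 HA reads. The Golgi and vesicle transport list, the largest, had 19 above and 12 below of 81 (median 0.00480, and -0.44 after rescaling). Golph3, which links Golgi membranes to actin, had 0.219 and 0.104 in old pools against 0.674 and 0.646 in young pools, Vps41, of lysosomal tethering, had 0.201 and 0.184 in old pools against 2.92 and 1.16 in young pools, and the clathrin adaptor subunit Ap2b1 had 1.47 and 7.83 in old pools against 0.393 and 0.749 in young pools.

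Chromatin lists differed in their medians, and that of histones was the highest. Of histones and histone chaperones, 6 of 14 lay above and 0 below, and the median of 0.68 stayed above 0 under all 6 scalings (0.23 at the same sum) and between 0.65 and 0.69 with any 1 pool left out. Npm1, a nucleolar histone chaperone, had a TE of 0.988 and 1.27 in old pools against 0.685 and 0.586 in young pools, and the linker histone Hist1h1a had 1.10 and 1.26 in old pools against 0.673 and 0.688 in young pools. Of histone-modifying enzymes, 12 of 39 lay above and 2 below (median 0.40, and -0.05 after rescaling), with the acetyltransferase Kat7 at 1.83 and 3.91 in old pools against 1.51 and 0.469 in young pools and the H3K9 methyltransferase Suv39h2 at 0.179 and 0.0144 in old pools against 0.820 and 0.197 in young pools. DNA methylation and imprint genes had 4 of 11 above and 0 below (median 0.39, and -0.06 after rescaling). Zfp57, which protects imprints, had 0.639 and 1.00 in old pools against 0.548 and 0.540 in young pools, with input levels of 2569 to 2703 CPM over the 4 pools. Of DNA damage genes, 11 of 41 lay above and 3 below (median 0.27, and -0.18 after rescaling). Mdc1, the scaffold at double-strand breaks, had 2.35 and 2.02 in old pools against 0.646 and 0.389 in young pools, and DNA ligase 1, Lig1, had 0.134 and 0.380 in old pools against 0.851 and 0.913 in young pools. Oocyte transcription factors had 4 above and 0 below of 13, yet a median of -0.02, or -0.03 to 0.21 with 1 pool left out. Stat3 was above, with 3.30 and 2.16 in old pools against 1.49 and 0.466 in young pools. Zfp genes, mostly DNA-binding zinc finger proteins, had 15 above and 13 below of 79 (median -0.03, above 0 under 1 of the 6 scalings, and -0.23 to 0.39 with 1 pool left out), and predicted Gm genes had 8 above and 12 below of 68 (median -0.21, and -0.65 at the same sum).

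Of the groups for survival and signalling, the list of the BCL2 family, caspases and other apoptosis genes had 3 of 6 above and 0 below. The median of 0.87 was the highest of the 41 lists and was 0.42 with libraries at an equal sum. Casp8ap2, which binds caspase 8 and acts in histone gene expression, had a TE of 2.60 and 4.60 in old pools against 0.974 and 0.856 in young pools, and Birc3, an inhibitor of apoptosis, had 3.44 and 2.80 in old pools against 1.47 and 1.21 in young pools. Neither is a caspase or a BCL2 family member. Antioxidant genes were few and mixed, with 1 above and 1 below of 9 (median 0.33, -0.10 after rescaling, and -0.46 to 0.34 with 1 pool left out). The peroxiredoxin Prdx1 differed little (1.78 and 2.25 in old pools against 1.51 and 1.58 in young pools). Signalling by cAMP, PKA and calcium had 5 above and 5 below of 25 (median 0.22, -0.22 after rescaling, and -0.10 to 0.52 with 1 pool left out). Among those below were the store-operated calcium entry partners Orai1, with 0.227 and 0.00841 in old pools against 1.21 and 0.728 in young pools, and Stim2, with 0.0801 and 0.0656 in old pools against 0.719 and 1.27 in young pools. Of mTOR and Akt genes, 2 of 16 lay above and 1 below (median -0.19, -0.32 to 0.40 with 1 pool left out), where Deptor, an inhibitor of mTOR, had 1.64 and 2.76 in old pools against 0.809 and 1.20 in young pools. Solute carriers had 5 above and 5 below of 41 (median 0.19, -0.23 after rescaling, and -0.22 to 0.42 with 1 pool left out). The cystine transporter Slc7a11 had 2.12 and 3.20 in old pools against 1.40 and 1.31 in young pools and the phosphate transporter Slc20a2 had 0.00996 and 0.00475 in old pools against 0.581 and 2.00 in young pools, on 13 and 5 HA reads in old pools.

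The direction of the difference went with the level of a transcript. In 5 equal groups of abundant genes by mean input CPM, which is not corrected for length, the median log2 TE difference went from -0.26 in the lowest to 0.40 in the highest group. In the lowest group, 13.7% of genes lay above and 23.4% below, and in the highest 39.6% and 7.13%. The gradient was in the ribosome-bound RNA, whose medians were -0.28 and 0.51, while those of input were -0.01 and 0.12. The agreement between pools also went with the level, since the median gap between the old pools was 1.66 in the lowest and 0.66 in the highest group. Genes are not independent replicates, so these values carry no p, and their part in the list medians was not tested. The median input was 161 CPM for the genes above and 74.6 CPM for those below. It was 420.1 CPM for the subcortical maternal complex and NLRP list, 151 CPM for histones and their chaperones and 79.8 CPM for the proteasome.

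**Figure D4:**
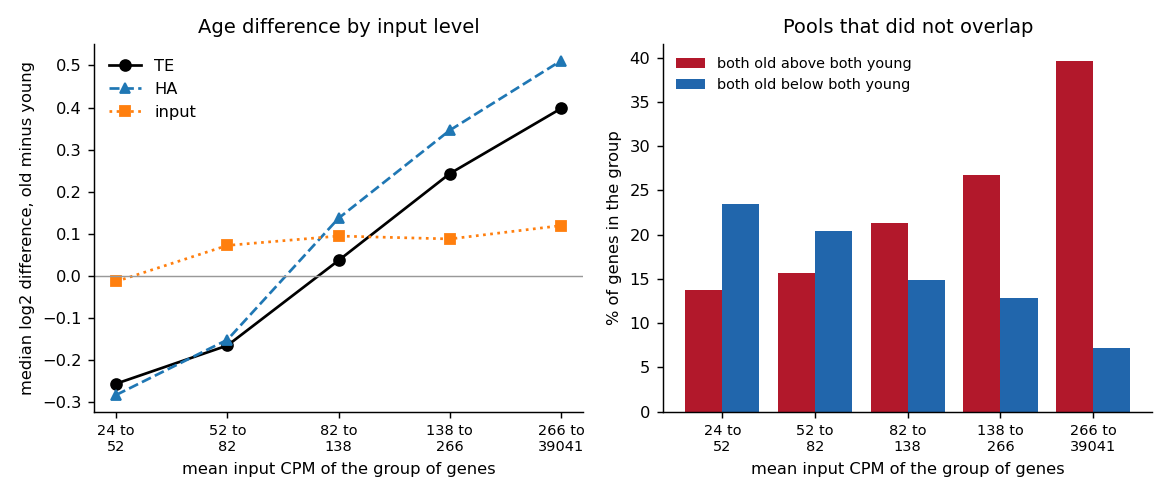
Left, median log2 difference between old and young oocytes in TE, HA and input for 5 equal groups of abundant genes by mean input CPM. Right, percentage of the genes of each group with both old pools above (red) or both below (blue) the young pools, where red goes from 13.7% to 39.6% and blue from 23.4% to 7.13%.

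Longer and less GC-rich transcripts lay higher. By length of the longest annotated mRNA, the medians were -0.05 in the shortest and 0.31 in the longest of 5 groups. By GC content they were 0.19 in the lowest and -0.05 in the highest group. Median input CPM differed along the same groups, from 79.9 CPM in the shortest to 152 CPM in the longest mRNAs. Whether length acts apart from level was not tested. The 42 abundant lincRNAs, which as long noncoding RNAs lack a long reading frame, had a median of -0.56, with 9.52% above and 26.2% below.

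The CPE was counted because CPEB1 is at the centre of the study. The mRNA strand of the longest annotated 3'-UTR of 3740 abundant genes was searched for TTTTAT and TTTTAAT, with overlapping matches counted. A CPE was found in 84.1% of the genes above, 72.5% of those below and 74.3% of those whose pools overlapped. The share was 76.3% over all abundant genes and 70.7% over all 7924 genes of both tables with such a 3'-UTR. A CPE in the last 100 bases, the stretch next to the poly(A) site where these elements act, was found in 27.6%, 20.5% and 21.8%. That share was 23.0% over all abundant genes and 21.5% over the 7924. Median 3'-UTR length was 1612 bases in the genes above, 1501 below and 1523 in the overlapping ones. Per kb of 3'-UTR they held 1.57, 1.42 and 1.49 CPEs. The median log2 TE difference was 0.26 for the 859 genes with a CPE there and 0.11 for the 2881 without. In each of the 5 groups by input level the median was higher with such a CPE than without. The gap was widest in the lowest group (0.03 against -0.36) and narrowest in the middle group (0.12 against 0.05). In the highest group the medians were 0.49 and 0.38. In the middle group alone, the median HA difference was lower with such a CPE (0.08 against 0.14). A match is a stretch of letters and not a shown site of binding. The annotated 3' end may also differ from that used in oocytes.

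**Figure D5:**
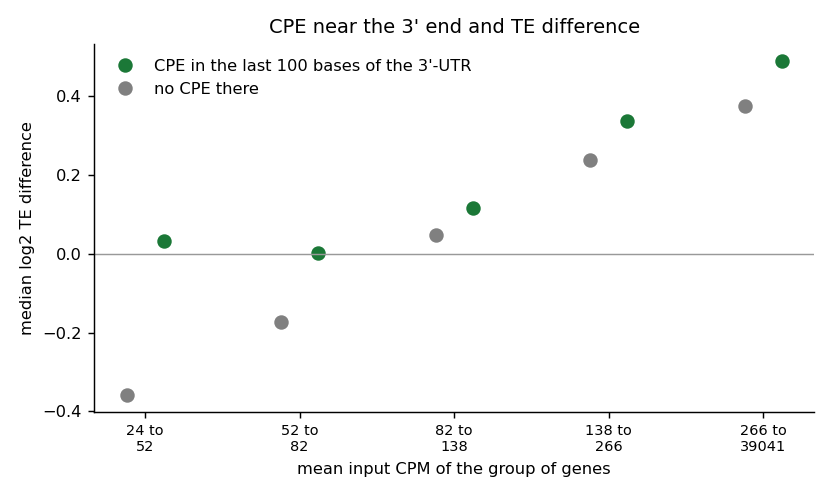
Median log2 TE difference between old and young oocytes of genes with (green) and without (grey) a CPE in the last 100 bases of the 3'-UTR, in 5 groups by mean input CPM. Green points lie above grey points in each group. They are at 0.03 against -0.36 at the lowest level, 0.12 against 0.05 in the middle group and 0.49 against 0.38 at the highest level.

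The 3'-most CPE is shown for genes on both sides, since genes with a CPE near the 3' end lay above as well as below. The stretches are from the mRNA strand in the GENCODE M21 transcripts (GRCm38), 5' to 3', with T for U and the CPE in capitals.
Zbed3: tttttttttaataaacTTTTATttatctgc
Spin1: tctgtaagtaatTTTTATaattatgatgta
Thoc2: tttaagagaattTTTTATctactgaattct
Gdf9: agagtgctgtggTTTTATgtgacggaagaa
Ccnb1: ctcatttgctgTTTTAATttatacatctga
Rfx7: gacaatttgccaTTTTATaaatatgtacat
Cpeb1: ttgacttttctTTTTAATttaacgattact
Among the genes higher in old oocytes, the motif starts 14 bases before the end in Zbed3, 62 in Spin1, 71 in Thoc2, 39 in Gdf9 and 144 in Ccnb1. Rfx7, with the smallest p of the lower mRNAs, has it 59 bases before the end, much like Spin1, and Cpeb1 has it 249 bases before the end. Rfx7 holds 12 such motifs in its 3'-UTR, Thoc2 11, Spin1 8 and Zbed3 5.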

How the data were processed

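The ages were compared in 4 pools of MII oocytes, each with an HA and an input library. Per the labels and the study's methods, RNA was amplified with the NuGEN Ovation RNA-Seq V2 kit and sequenced as single reads. The authors trimmed reads with Trimmomatic 0.36, aligned them with HISAT2 to GRCm38, counted reads per gene with HTSeq without strand and, with edgeR, applied TMM normalization separately to HA and input. The deposited values are this signal in CPM. They were whole multiples of 1 read in 100% of cases (within 0.01 reads), and the reads per library (37817382 to 60052814) were recovered from them. The part of amplification in the spread of low values was not tested.

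TE was HA CPM over input CPM in a pool, joined by the pool number of the labels, and log2 TE used a pseudocount of 1 CPM. A fold change on that scale understates the change of low genes. The 8537 genes of both tables (8898 HA, 10530 input) were fitted in limma 3.58.1 (R 4.3.3) with a trend, 2 old against 2 young pools, two-sided, with Benjamini-Hochberg adjustment. edgeR 4.0.16 and DESeq2 1.42.0 were run on recovered reads as alternatives, and others changed the scaling, pseudocount, minimum and pools. In simulated data with 8537 genes, of which 200 differed between the ages, limma recovered 3 at a log2 TE change of 2 and 135 at 4. Members and gene lists were chosen with earlier results of these data known. Named genes were the 12 above and 12 below with the smallest limma p among those apart both as deposited and centred, up to 2 per list and direction with the largest size, the study's own test genes and the 5 with the highest input. The 3'-UTRs were the longest in GENCODE M21 (GRCm38), matched for 3740 of 3856 genes by gene ID.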

Additional observations from a re-analysis of the deposited data

Results flagged for a closer look

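Among the 12 higher and 12 lower genes with the smallest p in their direction, 6 were set apart because HA and input differed in opposite directions between the ages in all 4 pools. The pattern is not particular to them, since 83 of all 902 higher and 100 of all 607 lower genes had it. Those 6 genes are described here. Among genes with higher TE in old oocytes these were Dpysl3, with a log2 TE difference of 2.99, and Arhgap28, with 2.31. Input levels of Dpysl3 were 126 and 129 CPM in old and 165 and 155 CPM in young pools, and HA levels were 464 and 276 CPM and 66.4 and 47.0 CPM. Among genes with lower TE these were Tacc1 at -4.80, Plxnb2 at -3.37, Dhx15 at -5.12 and Usp21 at -4.66. Tacc1 had 147 and 125 CPM in old and 50.9 and 54.0 CPM in young input, but 3.99 and 1.26 CPM against 46.8 and 26.9 CPM in HA. Usp21 had 92.6 and 179 CPM against 62.9 and 57.1 CPM in input. The log2 TE difference is itself the test of the difference between fractions, and its adjusted p in limma was 0.739 for each of the 6 genes. They were looked for among genes already chosen with their TE difference known.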

How the results depend on the processing

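The count of 0 abundant genes past the adjusted threshold in limma was also 0 with another scaling, pseudocount, minimum or fit over abundant genes only, without trend, with the age by fraction interaction and in the quasi-likelihood test of edgeR. DESeq2 gave 84 abundant genes, and made 146 calls over all 8537 genes in simulated data with no change. These counts are over different sets of genes, and the simulation gave old and young pools the same spread. It therefore cannot show how many of the 84 calls are false. Old and young pools share only a number (r = 0.0614 between the deviations of same-numbered pools), and with the replicate block the count of abundant genes was 5. With 1 pool left out it ran from 0 to 40, where the lone pool of an age is assumed to vary like the other age. Genes with both old pools above ran from 1253 to 1778 and those below from 936 to 1400, since fewer pools overlap less easily, and the median log2 TE difference from 0.071 to 0.19.

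That median was below 0 with centring (-0.10), libraries at the same sum (-0.32) and quantile normalization (-0.18). Genes above numbered 463 and genes below 1024 at the same sum, and quantile normalization gave 497 above. At unadjusted p, 181 higher and 124 lower calls became 107 and 172 with centring, 58 and 222 at the same sum and 81 and 164 after quantile normalization. With at least 50 CPM, 285 genes lay below and the median was 0.25. It was 0.032 with at least 10 CPM and 0.20 with a mean HA of at least 20 CPM. In 1687 genes whose span overlaps no other gene, a subset chosen after seeing the data, 397 (23.5%) lay above and 254 (15.1%) below. The causes were not tested. The 1st percentile of HA reads over abundant genes was 13.6 in old pool 1 and 164 in young pool 2, at 46950706 and 47163410 reads on genes. It was 7.0 in old pool 2 and 543 in young pool 1, at 37817382 and 59688578 reads. The part of library depth was not tested.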

Other observations

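The 5 abundant transcripts with the highest input level were Zbed3, mt-Rnr2, mt-Rnr1, Gm1965 and mt-Cytb. Gm1965, a predicted gene, had a TE of 1.41 and 2.09 in old pools against 1.30 and 1.11 in young pools, with a log2 difference of 0.51 (standard error 0.26). Over the autosomes and the X chromosome, the median log2 TE difference of the abundant genes ran from -0.02 on chromosome 17 to 0.38 on chromosome 10. The mitochondrial genome's transcripts lay lower, with a median of -0.34.

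Of the genes that the study followed by other means, Thumpd1, an RNA-binding protein of tRNA acetylation, had a TE of 4.58 and 3.94 in old pools against 1.80 and 1.60 in young pools. Il7, interleukin 7, overlapped between the ages, with 1.19 and 0.606 in old pools against 0.377 and 1.08 in young pools. The study followed injected 3'-UTR reporters in maturing oocytes, which is another measure than TE at MII. It reports lower reporter rates in old oocytes for Thumpd1, Il7, Golph3 and Ccnb1. For Nlrp5 it reports a higher rate, and for Tpx2 and Ccnb2 no difference.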
